A study of Mus musculus with 12 samples.

Results

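The genes described here encode the proteins of the cytosolic ribosome. They were taken from the deposited tables by name: protein-coding rows called Rpl or Rps with a number, together with Rplp0, Rplp1, Rplp2, Rpsa and Rps3a1, with a mean of at least 1 CPM (counts scaled to a fixed library total) over all libraries. This gave 77 of the 47643 genes in the tables, 46 of the large and 31 of the small ribosomal subunit. All 77 genes with such a name passed the minimum, and the least abundant, Rps12, had 25.5 CPM, so no gene lay near it. The tissue was pancreatic tumor of KPC4662, a mouse pancreatic ductal adenocarcinoma line labelled as epithelial. Tumors of both groups carry the same line label. Bulk poly(A) RNA sequencing covered 6 libraries labelled Young tumor and 6 labelled Old tumor, from mice of the 2 age groups. The ages, strain and sex of the mice, the route of implantation, and whether each tumor piece came from its own mouse are details that the labels leave out. The p-values therefore measure the spread between these pieces.

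A ribosome pairs a small subunit, which holds the messenger RNA and checks codons, with a large subunit, which joins amino acids and passes the chain through an exit tunnel. Each protein is needed in about equal copy number, and the genes are among the most highly expressed in growing cells. Their messenger RNAs begin with a C followed by a run of pyrimidines, the 5′ terminal oligopyrimidine (TOP) tract, through which mTOR signalling controls their translation. Mammalian genomes also hold many processed pseudogenes of these genes, which are near-identical in sequence.

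The TOP tract is the sequence feature these genes are known for, and RefSeq promoter entries of build GRCm38.p6 were found for 57 of the 77. Searched as C at the annotated start followed by at least 4 bases that are each C or T, on the gene's strand, the tract was present in 13 of the 57 (22.8%) and in 3.01% of 27025 genes. The windows of 4 genes that were lower in old tumors, and of Rpl15 and Rpl35, which carry the longest tracts found, are given 5′ to 3′ on the gene's strand. Each holds 25 bases before the start and 15 transcribed bases, with the tract in capitals.
Rps21, chr2:180257354-180257393, plus strand: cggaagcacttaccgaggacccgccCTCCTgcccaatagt
Rpl38, chr11:114668555-114668594, plus strand: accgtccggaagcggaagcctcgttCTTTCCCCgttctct
Rpl35a, chr16:33056457-33056496, plus strand: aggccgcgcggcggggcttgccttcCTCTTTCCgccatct
Rplp2, chr7:141447626-141447665, plus strand: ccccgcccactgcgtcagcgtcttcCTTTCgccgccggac
Rpl35, chr2:39005117-39005156, minus strand: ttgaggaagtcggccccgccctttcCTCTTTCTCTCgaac
Rpl15, chr14:18270972-18271011, minus strand: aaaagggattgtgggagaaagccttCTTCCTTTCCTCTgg
The tract ran over 13 bases in Rpl15, 11 in Rpl35, 8 in Rpl38 and Rpl35a, and 5 in Rps21 and Rplp2. Within 300 bases around the start, on both strands, CCGGAAG, the core bound by ETS factors, was found in 24 of 57 (42.1%) against 9.93% of all genes. CTCTTTCC, which can overlap the tract as it does in Rpl35a, was found in 10 of 57 (17.5%) against 3.57%. TATAAA was found in 6 of 57 (10.5%) against 15.7%. A match describes the letters only, and a missing tract can reflect an annotated start that lies a few bases off. Of the 13 genes with a tract, 4 passed the test described below, with a median log2 fold change of −0.36, and of the 44 without it 10 passed, with a median of −0.34.

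Library totals were 20.1M to 23.1M counts for young and 17.8M to 24.1M for old tumors. The 8 epithelial markers of the labelled cell type were all detected, with summed levels of 5179 to 9430 CPM in young and 5247 to 7972 CPM in old libraries. Old tumor 1 stood apart in stromal markers, and Old tumor 5 had the lowest level of ribosomal protein genes, so values without each of them are given beside the main counts.

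Of all counts, the 77 genes held 4.15% ± 0.311 in young (SD, n = 6) and 3.37% ± 0.353 in old tumors (SD, n = 6), which is −0.78 percentage points. Young libraries ran from 3.64% in Young tumor 3 to 4.49% in Young tumor 5, with a median of 4.15%. Old libraries ran from 2.78% in Old tumor 5 to 3.74% in Old tumor 4, with a median of 3.35%. Each old library was under the young median, but the groups overlapped, because Old tumor 1 and Old tumor 4 lay just above Young tumor 3. The difference was −0.85 points without Old tumor 1 and −0.66 without Old tumor 5. Large-subunit genes went from 2.41% to 1.96% and small-subunit genes from 1.74% to 1.41% of counts, so both subunits differed in a similar proportion. Bulk RNA cannot tell fewer cells with a high ribosomal protein level from less of this RNA per cell. No test was made of this share.

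**Figure D1:**
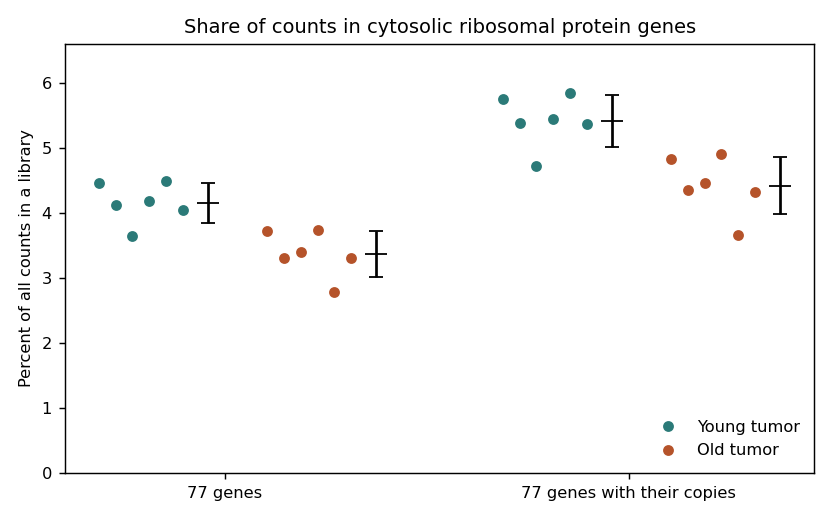
Percent of all counts in the 77 ribosomal protein genes (left) and in the 77 genes with their near-identical copies (right), 1 point per library in replicate order, with the mean and SD of each age group beside the points. Old libraries sit below the young median in both measures, and Young tumor 3 at 3.64% lies under Old tumor 1 and Old tumor 4.

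Ribosomal protein genes were lower in old tumors by modest amounts, 15 of them past the threshold and the other 62 on the same side of 0 without passing it. With edgeR's quasi-likelihood test and Benjamini-Hochberg adjustment over 16013 genes, 15 of the 77 passed an adjusted p of 0.05 as lower. The background was 1.47% of all tested genes, and 0 of the 77 passed as higher, against 0.793%. DESeq2 also called 0 higher, against 3.58% of genes. At an unadjusted p under 0.05 by edgeR 0 were higher, and the share of all genes there was not counted. These 15 were Rps21, Rpl38, Rpl37a, Rpl35a, Rplp2, Rpl18, Rpl21, Rps16, Rpl41, Rpl6, Rps26, Rpl7a, Rps9, Rpl24 and Rpl39. All 77 log2 fold changes (old over young) lay below 0, against 45.8% of tested genes, although Rpl5 and Rpl10 lay above 0 on the log2 TPM scale. The median was −0.34, against 0.03 for all tested genes. As linear values, old tumors were lower by 6.99% (Rpl5) to 36.5% (Rps12), with a median of 21.0%. Rpl5 and Rps12 held only 5.91% and 3.81% of the counts they share with near-identical copies, as described below. With those copies added they stood at −0.27 and −0.46 log2 units. An unadjusted p under 0.05 with a lower level was reached by 68 of 77, against 10.4% of tested genes.

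**Figure D2:**
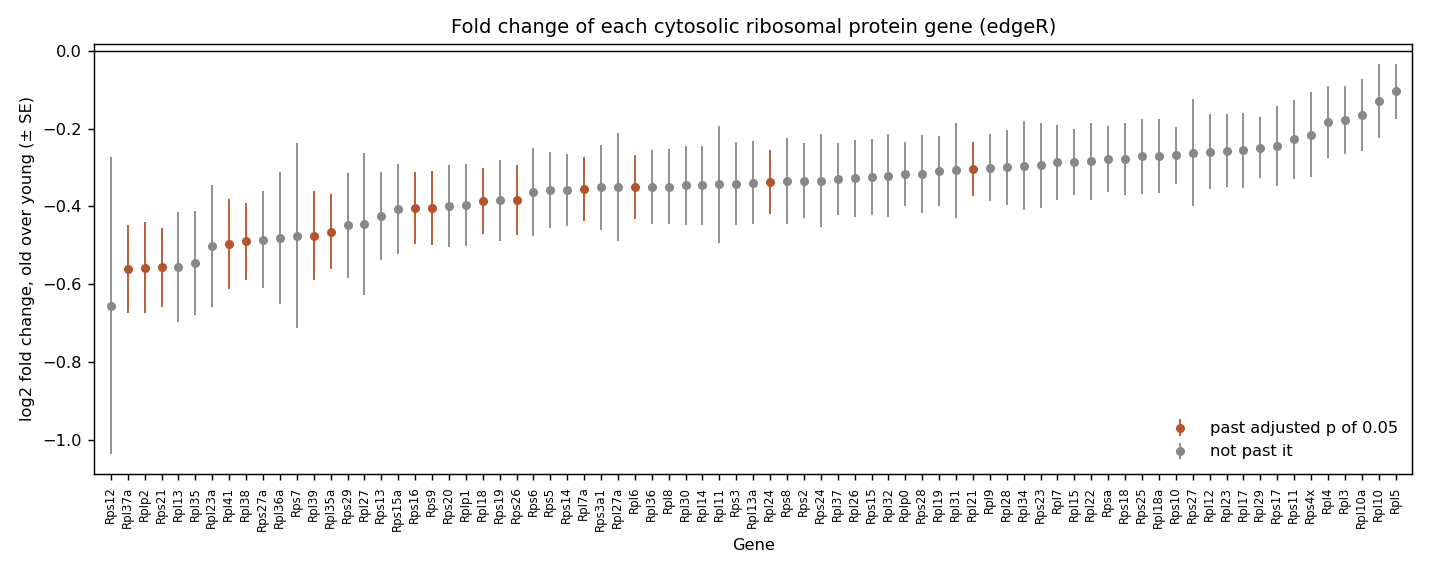
log2 fold change of each of the 77 genes, old over young, with its standard error from the edgeR fit, in order of size, with genes past an adjusted p of 0.05 in colour. Every point lies between −0.66 and −0.10, and the genes past the threshold run from Rpl37a at −0.56 to Rpl21 at −0.30, with others between them that did not pass.

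The number of calls depended on single libraries far more than the size of the change did. Beside the share of all genes called lower in the same fit, it was 35 without Old tumor 1 (4.17%) and 26 when Young tumor 3 was left out (1.77%). Leaving out Young tumor 6 gave 2 (0.538%), Young tumor 2 gave 1 (0.394%) and Young tumor 4 gave 1 (0.241%). By edgeR 0 were called on leaving out Young tumor 1 (0.0433%), Young tumor 5 (0.253%), or Old tumor 2 (0.0619%), 3 (0%), 4 (0.148%), 5 (0.111%) or 6 (0.142%). Over these 12 fits an unadjusted p under 0.05 as lower was still reached by 61 to 72 of the 77. The share of all genes at that unadjusted p was counted only in the main fit (10.4%), not in these 12. The median log2 fold change stayed between −0.38 (Old tumor 1 left out) and −0.29 (Old tumor 5 left out). DESeq2 called 52 of the 77 lower, all 15 among them, against 5.41% of genes, and a fit on log2(TPM + 1) called 1, Rps21, against 0.3%.

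In the large subunit 11 of 46 genes passed by edgeR (30 by DESeq2), with a median log2 fold change of −0.33. Rpl37a, a zinc-binding protein of this subunit (chr1:72711290-72713813, GRCm38), had a lowest, median and highest level of 349, 494 and 529 CPM in young and 249, 318 and 361 CPM in old tumors. The groups overlapped only through Young tumor 3, which lay under Old tumor 1 and Old tumor 4, and edgeR put the log2 fold change at −0.56 ± 0.11 SE (adjusted p = 0.033). Rpl41, the shortest protein of the ribosome (chr10:128548114-128549305), had 363, 466 and 534 CPM in young and 250, 329 and 408 CPM in old tumors. Young tumor 3 lay within the old range here too, and the difference was −0.50 ± 0.12 SE in log2 units (edgeR adjusted p = 0.044). Rpl38, which is needed for normal axial patterning in the mouse (chr11:114668524-114672331), had 178, 208 and 225 CPM in young and 115, 145 and 177 CPM in old tumors. Here every old library lay below every young one, at an edgeR log2 value of −0.49 ± 0.10 SE (adjusted p = 0.033). Rpl35a, mutated in some families with Diamond-Blackfan anaemia (chr16:33056453-33060189), had 473, 596 and 661 CPM in young and 353, 416 and 490 CPM in old tumors (−0.46 ± 0.10 SE in log2, edgeR adjusted p = 0.035).

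The P stalk is the flexible arm of the large subunit that recruits elongation factors. By edgeR 1 of its 3 genes passed, while DESeq2 called 3 and 3 had an unadjusted p under 0.05. The gene past the edgeR threshold was Rplp2 (chr7:141447370-141451585), at 364, 431 and 532 CPM in young and 235, 287 and 368 CPM in old tumors (log2 fold change −0.56 ± 0.12 SE, edgeR adjusted p = 0.035). Its partner Rplp1 stood at −0.40 ± 0.11 SE (edgeR adjusted p = 0.061), and Rplp0, the base that carries both, −0.32 ± 0.08 SE (edgeR adjusted p = 0.056). Differences among the 3 genes were not tested.

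Around the exit tunnel 1 of 8 genes passed by edgeR (5 by DESeq2), with a median of −0.32. That gene was Rpl39, which lines the tunnel wall (chrX:37082520-37085402), at 283, 336 and 433 CPM in young and 194, 253 and 279 CPM in old tumors. Its groups did not overlap, at an edgeR log2 value of −0.48 ± 0.12 SE (adjusted p = 0.049). Rpl35 and Rpl23a, at the tunnel rim where chaperones and the signal recognition particle dock, had larger log2 fold changes of −0.54 and −0.50 with wider errors (SE 0.134 and 0.157) and did not pass (edgeR adjusted p = 0.051 and 0.094). None of the 3 genes next to the peptidyl transferase centre passed by edgeR (1 had an unadjusted p under 0.05, and DESeq2 called 1). There Rpl8 stood at −0.35, Rpl3 at −0.18 and Rpl10, which joins the subunit late in its maturation, at −0.13 (edgeR adjusted p = 0.066, 0.255 and 0.463). Rpl5 and Rpl11 form, with 5S ribosomal RNA, the particle that binds Mdm2 when ribosome assembly is disturbed. Neither passed by edgeR or DESeq2 (log2 fold changes −0.10 and −0.34, with Rpl11 under an unadjusted p of 0.05). With their near-identical copies added they stood at −0.27 and −0.31 and did not pass (edgeR adjusted p = 0.077 and 0.080).

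In the small subunit 4 of 31 genes passed by edgeR (22 by DESeq2), with a median of −0.35. Rps21, a platform protein (chr2:180257377-180258445), had the smallest adjusted p of the 77. It ran at 397, 450 and 540 CPM in young and 259, 313 and 370 CPM in old tumors, with no overlap, and edgeR gave −0.56 ± 0.10 SE (adjusted p = 0.030). The platform list held 2 genes of 5 past the edgeR threshold (4 by DESeq2), the other being Rps26, which lies at the exit of the messenger RNA channel (log2 fold change −0.38 ± 0.09 SE, edgeR adjusted p = 0.044). In the head of the subunit 1 of 11 genes passed by edgeR (8 by DESeq2), Rps16, with a list median of −0.36. A list of 5 genes was mostly from the side where messenger RNA enters and is decoded, with Rps3a1 lying outside it. Of these 5 genes 0 passed by edgeR, 4 passed by DESeq2 and 5 had an unadjusted p under 0.05. Their log2 fold changes lay in a narrow range, from −0.35 (Rps3a1) to −0.29 (Rps23). Rps27a, made as a fusion to ubiquitin, stood at −0.49 ± 0.12 (SE; edgeR adjusted p = 0.055). Of the 18 members that are Diamond-Blackfan anaemia genes, 3 passed by edgeR (Rpl18, Rpl35a and Rps26) and 10 by DESeq2, with a median of −0.34, the same as that of all 77.

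The highest old library was below the lowest young library for 6 genes, Rpl6, Rps21, Rpl21, Rpl9, Rpl38 and Rpl39, which is 7.79% of the 77 against 1.97% of tested genes. Rpl9 was among them although it did not pass (edgeR adjusted p = 0.077), at 649 to 826 CPM in young and 469 to 628 CPM in old tumors. For 0 genes did all old libraries lie above all young ones, against 0.999%.

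Members also varied together from library to library. Over 12 libraries the median Pearson r of log2 CPM between 2 of the genes was 0.79 (2926 pairs, lowest −0.01), and 0.60 once each age's mean was taken off. These values describe 12 points that share library and scaling. The lowest of the 12 libraries was Old tumor 5 for 57 of the 77 genes and Old tumor 2 for 11, and the highest was Young tumor 5 for 37 and Young tumor 1 for 30. Among young libraries Young tumor 3 was lowest for 45. Genes outside the group were ranked by how closely their log2 CPM followed the mean of the 77 over 12 libraries. Pseudogenes and genes with predicted or clone names were left out of this ranking. The closest were Atp5f1 (r = 0.98), Eef1b2 (0.96), Snrnp27 (0.96), Rpl36al (0.95), Wbp5 (0.95) and Cdkn3 (0.95).

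**Figure D3:**
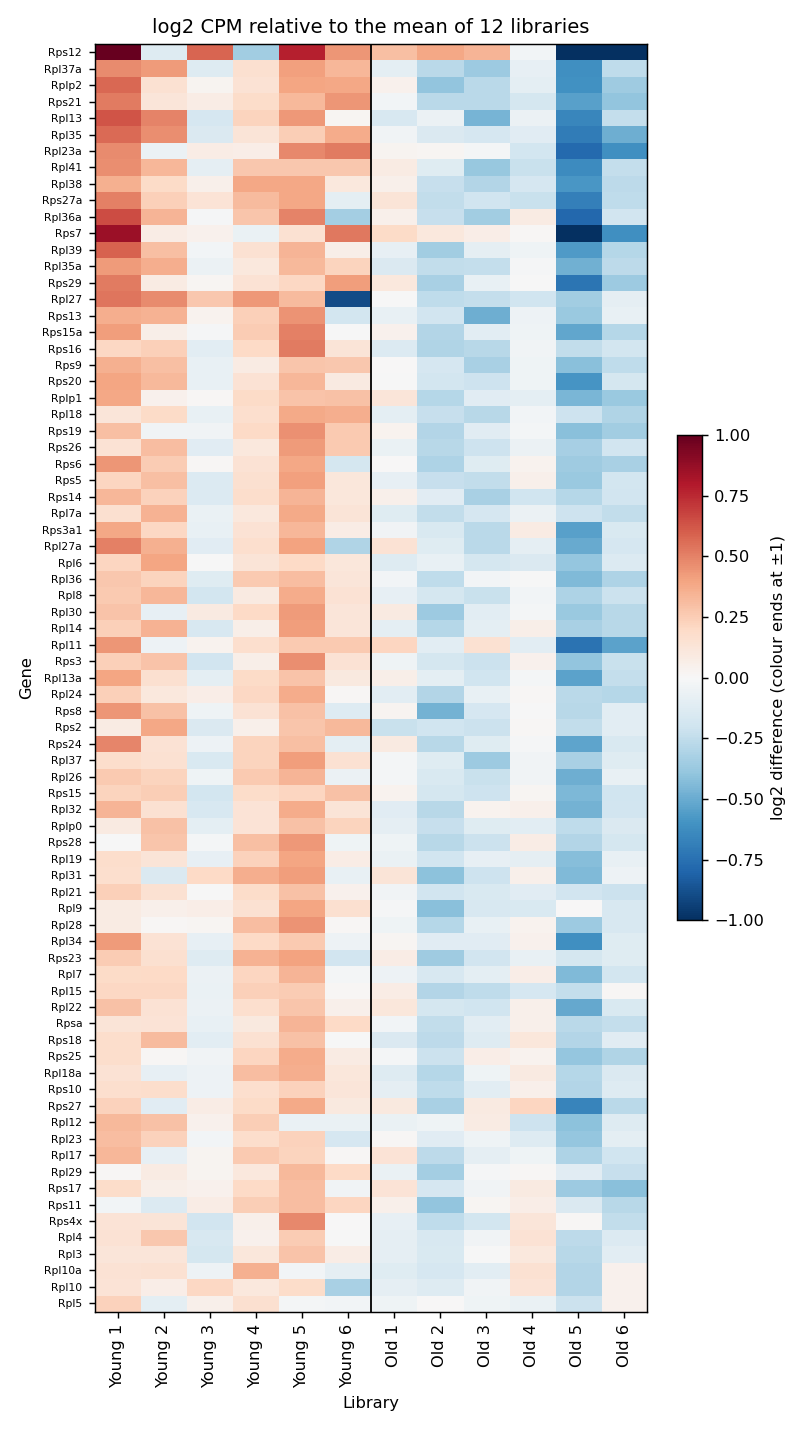
log2 CPM of the 77 genes (rows, ordered by fold change) in 12 libraries (columns, in replicate order), relative to each gene's mean over the libraries, with the colour scale ending at ±1. Most rows share 1 pattern, with Young tumor 1 and Young tumor 5 high and Old tumor 5 low. Rps12, Rps7 and Rpl27 vary most within an age group beyond the mean of all members in each library.

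Rps12, Rps7 and Rpl27 varied most within an age group once the mean of all members in each library was taken off, with residual SDs of 0.76, 0.41 and 0.36 log2 units against a median of 0.11. Rps12, of the small-subunit head, ran from 17.3 to 49.2 CPM in young and from 6.46 to 28.8 CPM in old tumors, with its lowest values in Old tumor 5 and Old tumor 6. Rps7 had 62.1 to 118 CPM in young and 25.5 to 74.3 CPM in old tumors. Rpl27, a large-subunit protein, had 62.9 to 75.3 CPM in 5 young libraries but 28.0 CPM in Young tumor 6, and 40.9 to 51.9 CPM in old tumors. Along with Rpl10 and Rpl5, Rpl27 also followed the other members least (r = 0.54, 0.54 and 0.56 for Rpl10, Rpl5 and Rpl27).

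These genes are also ones whose counts mostly went to other annotated rows. Transcripts of pseudogenes and predicted genes that match a member at 90% identity or more over at least 50% of the shorter sequence were found for 74 of the 77 genes, as 905 rows, of which 732 had counts. For 18 genes the member held under 50% of the counts of its own sequence family. Rps12 held 3.81%, Rpl5 5.91%, Rpl12 7.60%, Rpl10 8.89%, Rps7 14.6% and Rpl27 20.3%. Rpl5 itself had 74.5 CPM, while its copy Gm15500 had 1178 CPM, and for Rpl12 the copy Gm10275 had 849 CPM against 70.5 CPM. Rps12l1 had 601 CPM against 25.5 CPM for Rps12, and Rpl10-ps3 had 771 CPM against 82.5 CPM for Rpl10. These values are RSEM's division of reads among near-identical transcripts, so the level of each of the 18 genes alone is uncertain, and so is any transcription of the copies.

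The spread of levels among members changed accordingly. In TPM, which is per length, members ran from 95.3 (Rpl5), 99.5 (Rps12), 110 (Rpl12) and 122 (Rps7) to 2625 (Rps2), 2739 (Rps18), 3009 (Rplp1) and 3132 (Rpl7), a range of 32.9-fold. With the copies added the range was 4.11-fold, and Rps12 moved from the second lowest to the highest, at 3192 TPM, with Rpl29 lowest at 777 TPM. Genes over 1000 TPM numbered 51 alone and 73 with copies. The median member stood at 1250 TPM, against 13.9 TPM for all tested genes.

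**Figure D4:**
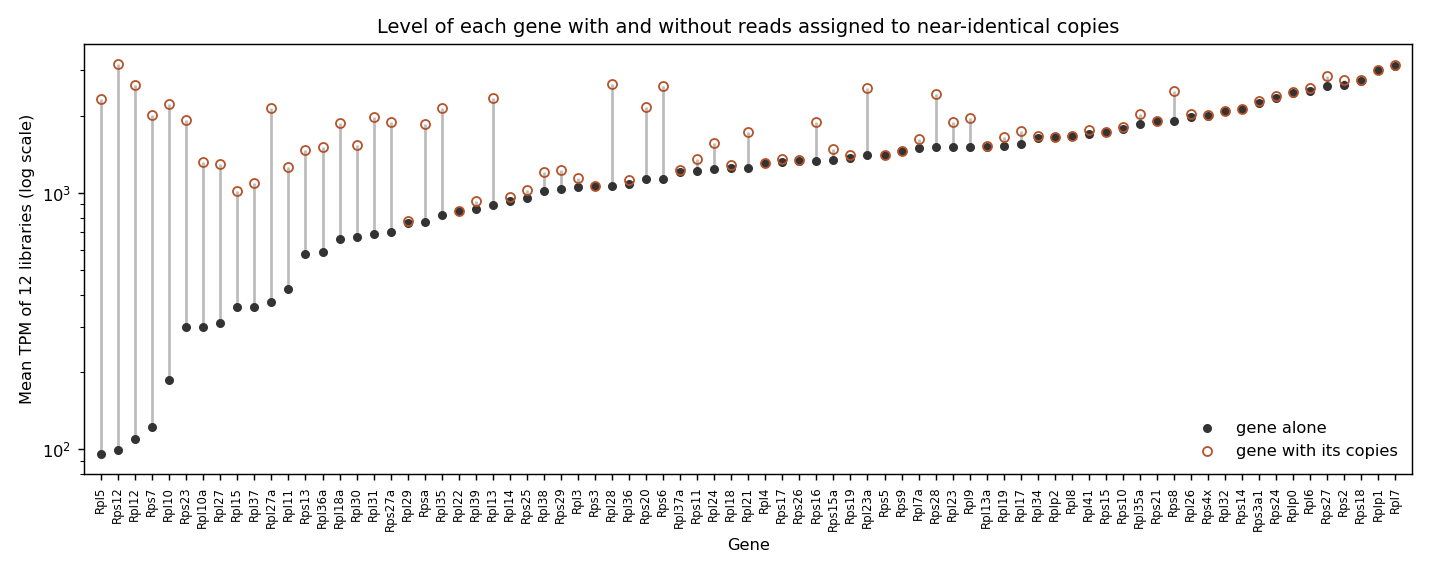
Mean TPM over 12 libraries (log scale) of each gene alone (filled) and with reads assigned to its near-identical copies (open), ordered by the level of the gene alone. Rpl5, Rps12, Rpl12 and Rps7 move from between 95.3 and 122 TPM to between 2015 and 3192 TPM, while genes at the right, such as Rpl7, hardly move.

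Calls were fewer among genes that held a small share of their family, a difference that was not tested. Of the 18 genes under 50% of their family 0 passed by edgeR (13 had an unadjusted p under 0.05, and DESeq2 called 7), of 14 genes between 50% and 90% 3 passed, and of 45 genes at 90% or more 12 passed. The median fold changes were alike (−0.35 under 50% and −0.34 at 90% or more), while the median standard error was 0.118 under 50% and 0.098 at 90% or more. The correlation with the mean of the other members had a median of 0.81 and 0.92. Summed with their copies and fitted again across all genes, 22 of 77 families passed as lower (background 1.63%), 14 of them among the 15, with a median log2 fold change of −0.34. Rpl13, Rpl37, Rpl9, Rpl23a, Rps12, Rpl35, Rpl27 and Rps13 passed with their copies and not alone, and Rpl21 the reverse. The Rps12 family stood at −0.46 ± 0.11 SE (adjusted p = 0.049), in place of −0.66 ± 0.38 for Rps12 alone (edgeR adjusted p = 0.345). Rpl27 went from −0.44 ± 0.18 to −0.44 ± 0.08 (SE; edgeR adjusted p = 0.185 and 0.025). Members and copies together took 5.42% ± 0.40 of young and 4.42% ± 0.445 of old counts (SD, n = 6 each), and copies alone held 1.27% and 1.05%. This sum was added after the data were seen.

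Exon length, the union of all annotated exons of a gene, moved with the age comparison over all genes. Across deciles of exon length the median log2 fold change of tested genes climbed from −0.18 in the shortest to 0.16 in the longest. Ribosomal protein genes are short, with exons summing to a median of 1781 bp, while that of all genes tested was 4022 bp, and 46 of the 77 fell in the shortest 2 deciles. In each decile that held members their median lay below that of all genes: −0.34 against −0.18 in the shortest, −0.34 against −0.10 in the next, −0.39 against 0.03 in decile 6 and −0.37 against 0.08 in decile 8. Taken singly, 77 of 77 members lay below the median of their decile. The union of exons can be longer than the transcript that was quantified. Rps24, at 6256 bp, had 701 CPM and 2343 TPM, beside 463 CPM and 1720 TPM for Rps15 at 630 bp. Members such as Rps24 may therefore sit in too long a decile, where the median of all genes is higher. The decile comparison, and the length correction that follows, are uncertain for them. After removing the length trend in each library, the median of the members was −0.29 (all genes −0.02), and 3 genes passed by edgeR, Rplp2, Rps21 and Rpl18, against 0.601% of genes. RNA quality per library was not used here, and its part in the length trend was not tested.

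**Figure D5:**
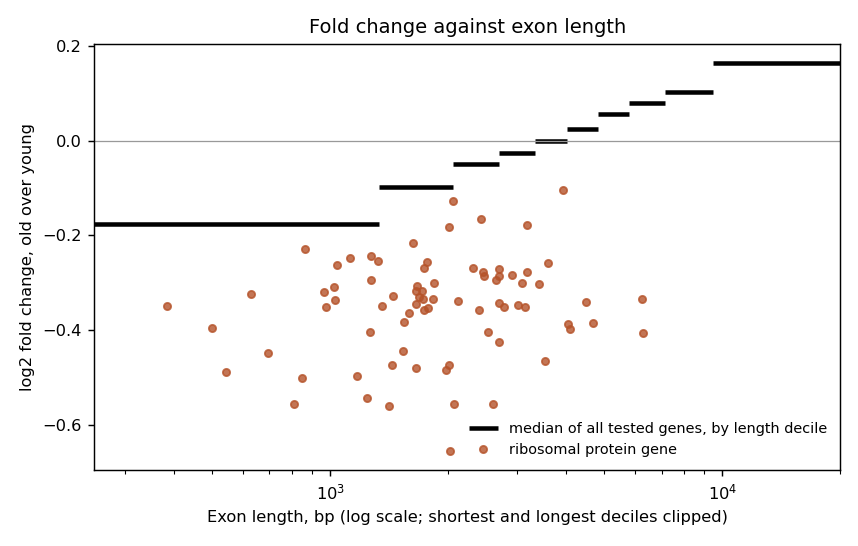
log2 fold change, old over young, of the 77 genes (points) against exon length in bp (union of annotated exons, log scale). Bars give the median of all tested genes in each decile of exon length. Bars climb from −0.18 to 0.16 with length, and all 77 points lie below the bar at their length.

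Some ribosomal proteins have genes that carry other names. Fau, a ubiquitin-like fusion that yields a small-subunit protein, fell by 0.47 log2 units (SE 0.108; edgeR adjusted p = 0.043), from 181 to 246 CPM in young to 118 to 178 CPM in old tumors. Gnb2l1, the older symbol of Rack1, stood at −0.25 and did not pass by edgeR (adjusted p = 0.099). DESeq2 called all 3 tested genes of this kind lower, Gnb2l1 among them. Among paralogs 1 of 6 tested passed by edgeR (3 by DESeq2), Rpl36al, at −0.49 ± 0.12 (SE; edgeR adjusted p = 0.049). Near-identical paralogs share reads with their parent gene, so these values are uncertain too.

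Other parts of the translation machinery also held genes that fell, and no difference between these lists and the 77 genes was tested. Of 14 elongation factor and other TOP genes 3 passed as lower by edgeR (Btf3, Naca and Eef1b2) and 6 by DESeq2. Among these 14 genes 13 lay below 0, and the median was −0.24. Eef1a1, the most abundant of them, stood at −0.11 and Eef2 at −0.02. Of 27 initiation factors 3 passed as lower by edgeR (Eif5a, Eif6 and Eif1) and 11 by DESeq2, with a median of −0.19. Of 34 assembly factors 3 passed as lower by edgeR (Nhp2, Nip7 and Mrto4) and 9 by DESeq2, with a median of −0.18. Of 14 genes of RNA polymerase I and its factors, which make ribosomal RNA, 2 passed as lower by edgeR and 3 by DESeq2, with a median of −0.09. The 2 past the edgeR threshold were Polr1d, shared with RNA polymerase III, and Twistnb. None of 16 genes of mTOR and Myc control passed by edgeR. DESeq2 called 3 of them higher, against 3.58% of all genes, and 1 lower, against 5.41%. At an unadjusted p under 0.05 by edgeR 5 were higher and 1 lower, and the share of all genes higher there was not counted. The median of these 16 genes was 0.12, or 0.03 with the length trend removed, at a median exon length of 6826 bp. Mtor stood at 0.31 ± 0.08 (SE; edgeR adjusted p = 0.061) and Tsc1 at 0.29 ± 0.08 (SE; edgeR adjusted p = 0.063). Eif4ebp1 stood at −0.25 ± 0.08 (SE; edgeR adjusted p = 0.091) and Myc at −0.06. None of 7 snoRNA host genes passed by edgeR (1 by DESeq2, and 1 at an unadjusted p under 0.05), with a median of −0.14. The transcripts of these genes measure RNA level only, not mTOR activity. With the length trend removed, medians were −0.30 for elongation factor and other TOP genes, −0.21 for initiation factors and −0.22 for assembly factors. They were −0.09 for RNA polymerase I and −0.11 for snoRNA host genes, beside −0.29 for the 77 genes.

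Mitochondrial ribosomal proteins, which serve a separate ribosome, offered the nearest comparison. They also numbered 77 tested genes, and 9 passed as lower and 0 as higher by edgeR (32 and 0 by DESeq2, 49 and 0 at an unadjusted p under 0.05), with 76 below 0 and a median of −0.23. Mrpl12 had the smallest p, at 62.3 to 72.8 CPM in young and 49.1 to 52.4 CPM in old tumors (log2 fold change −0.40 ± 0.06 SE, edgeR adjusted p = 0.014). Mrps14 and Mrps18c stood at −0.41 and −0.48 (edgeR adjusted p = 0.030 for both). Their summed level was 2875 to 3160 CPM in young and 2471 to 2793 CPM in old libraries, without overlap.

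Markers of dividing cells moved the same way. Of 8 such genes 4 passed as lower (Rrm2, Cdk1, Pcna and Birc5), all 8 lay below 0 with a median of −0.53, and their summed level was 589 to 797 CPM in young and 393 to 607 CPM in old libraries. Of 8 fibroblast markers 0 passed by edgeR or DESeq2 (2 at an unadjusted p under 0.05) and all lay above 0 (median 0.64), with sums of 1340 to 3519 CPM in young and 1243 to 9785 CPM in old libraries, the highest in Old tumor 1. Of 6 endothelial markers 0 passed by edgeR (1 by DESeq2, 3 at an unadjusted p under 0.05) and all lay above 0 (median 0.60), with sums of 93.9 to 151 CPM and 101 to 385 CPM. The 7 T cell markers all lay below 0 (median −0.91), with 0 called by edgeR, 2 by DESeq2 and 5 at an unadjusted p under 0.05, at sums of 17.8 to 43.4 CPM and 7.03 to 31.8 CPM. Of 3 tested B and plasma cell genes 1 passed as higher, Ighm, with sums over the list of 7.87 to 42.2 CPM and 15.9 to 996 CPM. Macrophage markers had sums of 497 to 858 CPM and 476 to 1196 CPM (median 0.02, 0 of 7 called) and neutrophil markers 26.9 to 159 CPM and 24.0 to 77.2 CPM (median −0.66, 0 of 5). The 8 epithelial markers had a median of −0.11 with 0 called. In these 3 lists 0 genes passed by edgeR, by DESeq2 or at an unadjusted p under 0.05. Acinar markers, with sums of 0.436 to 23.3 CPM and 0.215 to 3.68 CPM, were too low to test. In no list was a marker at 0 in all libraries. The part of cell division or of stromal and immune content in the level of the ribosomal protein genes was not tested.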

How the data were processed

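The labels' protocols describe poly(A) selection and directional libraries from 6 Young tumor and 6 Old tumor RNA preparations that met a minimum RNA integrity. Per the submitters' processing notes, cutadapt 2.3, STAR 2.7.0d (mm10) and RSEM 1.3.1 were used. Neither annotation nor strand setting is stated for that step. The expected counts deposited by the authors were rounded for testing, and the TPM values deposited by the authors served for levels between genes and as an alternative. RSEM divides reads among near-identical transcripts, which makes the level of a gene with such copies uncertain.

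Counts were fitted over all genes with edgeR 4.0.16 in R 4.3.3 (quasi-likelihood test, TMM, filterByExpr). Tests were two-sided, with Benjamini-Hochberg adjustment over 16013 genes and a threshold of 0.05. Each standard error is the fold change divided by the square root of F. CPM of a single gene used TMM-scaled totals, with a prior count of 2 on the log2 scale. Summed levels, and comparisons of a gene with its copies, used plain totals. Totals of 17.8M to 24.1M counts per library limit precision, and the spread between libraries is the error used. Exon lengths and coordinates came from GENCODE M21 (GRCm38, the assembly of mm10), which held 47224 of the 47643 gene IDs. Copies were found with blast 2.17.0 among its pseudogene and protein-coding predicted-gene transcripts.

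The members and gene lists were chosen with earlier results of these data known. Genes named are the 7 with the largest change among those called, the 4 highest and 4 lowest in TPM, the 3 most variable within age, the 3 least correlated with other members, and the 3 with the smallest p in each other list. Genes named for their role, their groups that do not overlap or their copies were chosen after values were seen. Alternatives were other scalings and filters, DESeq2 1.42.0, limma-voom (limma 3.58.1), log2 TPM, a length correction, a replicate block, copies added and each library left out. Scripts were tested on simulated data. Some results are not reported here.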

Additional observations from a re-analysis of the deposited data

Results flagged for a closer look

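In 7 of the 108 groups of 6 libraries checked, the highest or lowest library stood far from the other libraries of its age, and chance alone would mark about 1 in 20 groups. Among the 77 ribosomal protein genes these were Rpl6, at 821 CPM in Old tumor 5 against 949 to 1019 CPM in the other old libraries, Rpl27, at 28.0 CPM in Young tumor 6 against 62.9 to 75.3 CPM, and Rpl10, at 65.7 CPM in Young tumor 6 against 85.9 to 94.7 CPM. Rpl27 and Rpl10 each held under 50% of the counts of their sequence family. Among related genes, Rpl36al was high in Young tumor 1 (171 CPM, next 139 CPM), Twistnb in Young tumor 2 (27.5 CPM, next 22.9 CPM) and Tsc1 in Old tumor 3 (65.3 CPM, next 54.7 CPM), and Gas5 was low in Old tumor 5 (83.5 CPM, next 123 CPM).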

How the results depend on the processing

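The count of 15 lower genes became 52 with DESeq2, 29 with limma-voom (3.49% of all genes), 8 with total-count scaling (0.893%), 5 without a filter (0.376%), 3 with the length trend removed, and 1 on log2(TPM + 1) and on log2(TPM + 0.1), and it ran from 0 to 35 with 1 library left out. It stayed within 1.5 times under RLE scaling (16, beside 1.75% of all genes), TMM without the members (16, 1.7%), upper-quartile scaling (11, 1.54%), a filter of 1 CPM in 6 libraries (19, 2.53%), named copies (17, 1.52%) and all copies (22, 1.63%), beside 1.47% for the count of 15. None of the members was called higher under any of these settings by edgeR, DESeq2 or limma. Of all genes, 3.58% were called higher with DESeq2, 2.61% with limma-voom, 1.82% on log2(TPM + 1) and 1.95% on log2(TPM + 0.1). That share was 0.949% with total-count scaling, 0.14% without a filter and 0.0939% with the length trend removed. It ran from 0.0124% to 2.69% with 1 library left out. The settings that kept the count within 1.5 times had 0.803% (named copies) to 1.1% (filter of 1 CPM). With a replicate block 0 members were called lower by edgeR (median log2 fold change −0.34, background 0%, 68 at an unadjusted p under 0.05). The share of all genes at that unadjusted p was not counted in the block fit. Libraries of the same number did not deviate together in a way that shows pairing (correlations −0.23 to 0.14, own number closest for 2 of 6 young libraries). The median log2 fold change lay between −0.38 and −0.20 throughout. On log2(TPM + 1) and log2(TPM + 0.1) the median of all genes was 0.13 and 0.15 in place of 0.03, that of the members −0.20 on both, and Rpl5 (0.091 and 0.092) and Rpl10 (0.027 on both) lay above 0. As a percent of TPM the share was 10.6% in young and 9.16% in old tumors, a difference of −1.46 points, and over left-out libraries the difference in percent of counts ran from −0.88 to −0.66 points. For the 15 called genes, 226 of 420 values under an alternative no longer passed and 194 still did, with 420 of 420 below 0. For the other 10 genes named by rule, 10 of 280 values newly passed and 4 changed sign. The cause of these differences was not tested.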
